A study of Mus musculus with 32 samples.

Results

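Cholesterol synthesis in brown fat was followed through 8 genes: Hmgcs1, Idi1, Fdps, Sqle, Lss, Cyp51, Insig1 and Srebf2. They were taken by symbol from the 50686 Ensembl genes of the count table; each symbol had 1 identifier, and all 8 passed the filter on low counts that left 15505 genes for testing. Interscapular brown adipose tissue (iBAT) came from non-fasted male C57BL/6J mice of 10 weeks on chow, housed in mild cold under a light:dark cycle, with no genetic change or treatment in any group. The groups are 8 Zeitgeber times (ZT, hours after lights on) 3 h apart, ZT0 to ZT21, with lights off at ZT12, and each holds 4 mice with 1 library per mouse.

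Cells make cholesterol from acetyl-CoA through the mevalonate pathway. HMG-CoA synthase (Hmgcs1), isopentenyl diphosphate isomerase (Idi1) and farnesyl diphosphate synthase (Fdps) act before the pathway commits to sterols, and squalene epoxidase (Sqle), lanosterol synthase (Lss) and lanosterol demethylase (Cyp51) build and trim the sterol ring. SREBP-2, the product of Srebf2, switches these genes on when sterols in the endoplasmic reticulum run low, and INSIG1, itself a product of an SREBP target, holds the SREBP escort protein SCAP back when sterols are plentiful.

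Lane and time of day are tied in these data. Per the labels, lane 2 carried ZT0, ZT3 and ZT6, lane 3 carried ZT9, ZT12 and ZT15, and lane 4 carried ZT18 and ZT21, so between lanes the time point and the lane cannot be told apart. Total counts were 16300770 to 18254659 per library. CPM of single genes are read counts relative to the scaled size of the library, whereas sums of markers are relative to its unscaled total. Brown adipocyte markers, Ucp1 among them, summed to 2929 to 6255 CPM in every library. Skeletal muscle markers summed to between 2.10 and 5814 CPM and differed widely among mice of the same time point. Mitochondrially encoded genes took 18.5% to 28.2% of the counts, and 18.5% to 20.7% at ZT18.

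Stretches of 3 promoters are shown because they hold letters known as binding motifs of the regulators of this pathway. They are RefSeq promoters of build GRCm38.p6, on the strand of the gene, and positions count back from the RefSeq start. Those of Srebf2 and Insig1 end just before the gene begins in the GENCODE annotation, and that of Hmgcs1 ends at the RefSeq start, which lies upstream of the annotated gene. Capitals mark matches, on either strand, to TCACNCCAC (a sterol regulatory element core), its shortened form TCACNCCA, CCAAT (read as ATTGG on the other strand), the box of the SREBP partner NF-Y, and the E-box CACGTG.
Hmgcs1 chr13:119690101-119690350, plus strand: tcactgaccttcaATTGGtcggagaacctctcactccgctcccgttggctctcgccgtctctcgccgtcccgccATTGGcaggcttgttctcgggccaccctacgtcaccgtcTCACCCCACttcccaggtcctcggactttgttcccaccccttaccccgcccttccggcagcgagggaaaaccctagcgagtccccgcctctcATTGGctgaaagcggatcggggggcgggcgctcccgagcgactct
Srebf2 chr15:82147019-82147180, plus strand: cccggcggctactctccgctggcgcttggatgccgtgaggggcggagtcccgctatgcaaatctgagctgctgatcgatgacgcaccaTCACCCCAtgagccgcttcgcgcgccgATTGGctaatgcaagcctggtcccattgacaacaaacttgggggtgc
Insig1 chr5:28071162-28071362, plus strand: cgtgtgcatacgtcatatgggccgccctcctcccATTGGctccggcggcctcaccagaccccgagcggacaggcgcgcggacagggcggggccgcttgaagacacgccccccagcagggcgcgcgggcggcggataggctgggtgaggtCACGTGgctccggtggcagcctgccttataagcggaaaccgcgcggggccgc

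Of the 8 genes, 6 had a promoter in the table; Fdps and Sqle had none. Windows of 300 bases, 250 before and 50 after the start, were searched. The full core was found in Hmgcs1, 137 bases before the start, and in 1.24% of all 32851 promoters. The shortened form, which the full core contains, was also found in Srebf2, 162 bases before the start, and in 4.36% of all promoters. CCAAT was found in all 6 matched promoters and in 37.4% of all promoters, and the E-box in Insig1, 101 bases before the start, and in 7.15% of all. Among the 12 other sterol synthesis genes with a promoter in the table, 11 held CCAAT, 3 the E-box, 1 the shortened form and 0 the full core. A match is a run of letters and does not show that a factor binds.

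Levels differed widely between the 8 genes. Per kilobase of exon, Insig1 was highest at 137 CPM and Hmgcs1 next at 45.6 CPM, followed by Cyp51 at 8.60, Lss at 5.68, Srebf2 at 5.65, Sqle at 3.41, Idi1 at 1.92 and Fdps at 0.383. Fdps rests on few reads, 8 to 73 counts per library, and 26.7% of its exon bases overlap Gm43738 on the same strand, a gene listed at 0. Of its stretches of 100 bases, 78.6% were found in no other gene, and 78.1% of those of Idi1, so counting could have lost or shared reads of both. Sqle, Insig1 and Srebf2 shared no such stretch. Cyp51, Lss, Hmgcs1 and Idi1 overlap antisense genes over 3.5% to 12.1% of their exon bases, and the strand setting of the counting is not stated.

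Every one of the 8 genes had its highest mean at ZT0 or ZT18, and its lowest between ZT3 and ZT15. Called oscillating by JTK at P under 0.05 were 8 of 8, beside 39.7% of all genes tested, and after Benjamini-Hochberg (BH) adjustment 7 of 8, beside 30.4%. A 24 h cosine fitted to the counts with edgeR's quasi-likelihood test passed an adjusted p of 0.05 for 8 of 8, beside 36.1%, and any difference between time points passed for 6 of 8, beside 39.8%. With lane as a factor the cosine passed for 3 of 8, Cyp51 (adjusted p = 0.00488), Fdps (0.0328) and Insig1 (0.0359), beside 17.2% of all genes. The cosine passed for 7 of 8, all but Srebf2, with the muscle markers as a covariate, and for the same 7 without mitochondrially encoded genes. In bulk tissue, fewer cells of a type and less RNA per cell cannot be told apart.

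**Figure D1:**
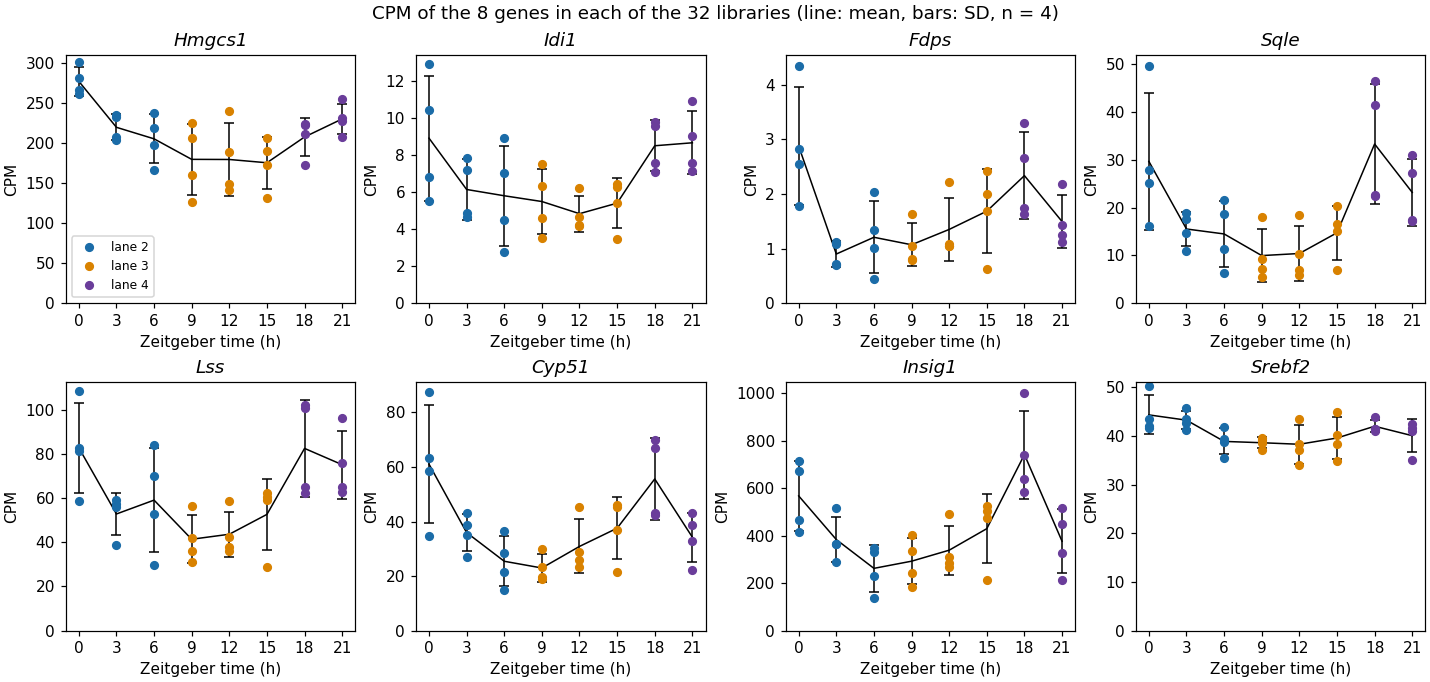
CPM of each gene (vertical axis, from 0) against Zeitgeber time (horizontal axis, h) in all 32 libraries, colored by sequencing lane; the line joins means of 4 mice and bars are SD. Sqle, Insig1 and Cyp51 are high at ZT0 and ZT18, and Srebf2 stays between 34.1 and 50.2 CPM throughout.

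Amplitudes, peaks and their SE came from a separate least-squares fit of the 24 h cosine to log2 CPM, not from the edgeR fit. Amplitudes (log2, mean to peak) had a median of 0.49 over the 8 genes, beside 0.14 over all genes tested. Sqle swung most, with 0.82 ± 0.16 (SE, 32 libraries) and a peak at ZT21.4 ± 0.72 h. Hmgcs1 had 0.29 ± 0.06 and the latest peak, ZT23.8 ± 0.75 h, whereas Fdps and Insig1 had the earliest, ZT19.7 ± 1.17 h and ZT19.7 ± 0.98 h. Between them were Cyp51 at ZT20.7 and Lss and Idi1 both at ZT21.6, with amplitudes of 0.52, 0.48 and 0.44. The differences in peak time were not tested. The cosine call of Fdps was lost without ZT18 replicate 1 (edgeR adjusted p = 0.053). Srebf2, the regulator, moved least, 0.09 ± 0.03 with a peak at ZT23.4, and its call was the weakest. Its edgeR adjusted p over 32 libraries was 0.044, and its JTK P, from an exact null distribution, was 0.0238 (BH 0.0699), or 0.0757 without ZT0 replicate 3 or ZT12 replicate 3. It fell short of the threshold of the cosine under DESeq2 size factors (adjusted p = 0.0569), library size alone (0.0667), no filter (0.106) and the replicate block (0.06), and in 20 of the 32 fits that left out 1 library each (highest 0.107, without ZT0 replicate 3).

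Hmgcs1 was highest at ZT0, with 281, 266, 302 and 261 CPM in the 4 mice. At ZT12 it was 240, 189, 149 and 141 CPM, and every ZT0 mouse lay above every ZT12 mouse. The log2 difference was -0.63 ± 0.16 (SE; edgeR adjusted p = 0.00861); such a gap without overlap was seen in 8.11% of all genes. Means fell from 277 ± 18.2 CPM at ZT0 (SD, n = 4) to a low of 176 ± 32.2 CPM at ZT15; no neighbours in the order of the means, ZT0, ZT21, ZT3, ZT18, ZT6, ZT9, ZT12, ZT15, differed past the threshold.

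Idi1 had its highest mean at ZT0, 8.91 ± 3.37 CPM (SD, n = 4), and its lowest at ZT12, 4.83 ± 0.963 CPM. The ZT0 mice had 12.9, 6.81, 10.4 and 5.50 CPM and the ZT12 mice 6.24, 4.24, 4.19 and 4.65 CPM, so the groups overlapped. The log2 difference was -0.88 ± 0.30 (edgeR adjusted p = 0.0427), a call lost without any of 5 libraries, ZT0 replicates 1 and 3 and ZT12 replicates 2, 3 and 4 (adjusted p 0.0845 to 0.176), with no filter (0.057) or with only the 8 libraries in the fit (0.0743).

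Fdps dropped in the first hours of light. The ZT0 mice had 2.82, 2.55, 4.35 and 1.78 CPM and the ZT3 mice 1.08, 0.708, 0.695 and 1.12 CPM, both on lane 2, with no overlap, as in 7.58% of all genes. The log2 difference was -1.67 ± 0.40 (SE; edgeR adjusted p = 0.0071), and 1 of 8 genes was thus lower at ZT3, beside 6.6% of all genes. In the other 7 steps between consecutive time points 0 of 8 passed in edgeR, beside 2.08% of all genes from ZT3 to ZT6, 1.95% to ZT9, 0.0% to ZT12, 3.04% to ZT15, 1.17% to ZT18, 2.06% to ZT21 and 7.72% from ZT21 to ZT0. At an unadjusted p under 0.05 the count was 4 from ZT15 to ZT18, 2 from ZT18 to ZT21, 2 from ZT21 to ZT0 and 0 in the other 4 steps. DESeq2 called 1 from ZT21 to ZT0, Cyp51, and 0 in the other 6, with 1 gene given no adjusted p from ZT9 to ZT12 and 1 from ZT15 to ZT18. Its means were 2.87 ± 1.08 CPM at ZT0 and 0.900 ± 0.229 CPM at ZT3 (SD, n = 4).

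Sqle, which adds the oxygen that precedes ring closure, had the widest ratio of time-point means of the 8, 3.34 beside 3.19 for Fdps. At ZT18 the mice had 46.5, 41.5, 22.7 and 22.4 CPM, and at ZT6 21.5, 18.6, 11.4 and 6.35 CPM, with no overlap, as in 11.5% of all genes. The log2 difference of 1.20 ± 0.41 (edgeR adjusted p = 0.0445) was lost without any of 5 libraries, ZT6 replicates 2, 3 and 4 and ZT18 replicates 1 and 2 (adjusted p 0.0524 to 0.143), with no filter (0.0534) or with only the 8 libraries in the fit (0.06). Against ZT0, where the mean was 29.7 ± 14.3 CPM (SD, n = 4), the ZT12 mean of 10.4 ± 5.67 CPM was lower by a log2 difference of -1.51 ± 0.42 (adjusted p = 0.0147), lost without ZT0 replicate 3 or ZT12 replicates 2 or 3 (0.0514 to 0.0801) or with only the 8 libraries (0.0526).

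Lss, which closes the sterol ring, had 82.7, 81.4, 109 and 58.9 CPM at ZT0 and 58.6, 35.9, 38.0 and 42.2 CPM at ZT12, and the groups did not overlap. The log2 difference was -0.92 ± 0.27 (edgeR adjusted p = 0.0207), lost without ZT0 replicate 3 or ZT12 replicates 2 or 3 (0.0636 to 0.0802). From ZT9 to ZT21 it was higher by 0.86 ± 0.27 (adjusted p = 0.0433), with 75.2 ± 15.4 against 41.4 ± 10.9 CPM (SD, n = 4 each) and no overlap (7.69% of all genes), a call lost without any of 6 of the 8 libraries (adjusted p 0.0535 to 0.145), all but ZT9 replicate 1 and ZT21 replicate 1, and with no filter (0.0536).

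Cyp51 had 67.1, 69.8, 43.2 and 42.3 CPM at ZT18 and 36.4, 28.6, 21.6 and 15.0 CPM at ZT6. The groups did not overlap, and the log2 difference of 1.13 ± 0.29 (edgeR adjusted p = 0.0082) kept its call without each of the 8 libraries. At ZT12 its mean of 30.9 ± 9.91 CPM was below the 61.0 ± 21.5 CPM of ZT0 (SD, n = 4) by a log2 difference of -0.98 ± 0.29 (adjusted p = 0.0199), a call lost without ZT0 replicate 3 or ZT12 replicates 3 or 4 (0.0577 to 0.0943) or with only the 8 libraries (0.0625).

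Insig1 was highest at ZT18, with 740, 1003, 640 and 584 CPM, against 350, 330, 231 and 138 CPM at ZT6, with no overlap. The log2 difference was 1.50 ± 0.32 (edgeR adjusted p = 0.00186) and passed without each of the 8 libraries. By ZT21, on the same lane as ZT18, the mice had 213, 449, 325 and 518 CPM, all below the ZT18 mice, as in 5.84% of all genes, but that step did not pass (log2 difference -0.98 ± 0.32, adjusted p = 0.102).

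Srebf2 stayed nearly level. Its means ran from 38.3 ± 3.95 CPM at ZT12 to 44.3 ± 3.99 CPM at ZT0 (SD, n = 4), and the ZT0 mice, with 41.6, 42.0, 50.2 and 43.4 CPM, overlapped the ZT12 mice, with 43.6, 37.1, 34.1 and 38.3 CPM. The log2 difference of -0.21 ± 0.08 did not pass (edgeR adjusted p = 0.0658).

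**Figure D2:**
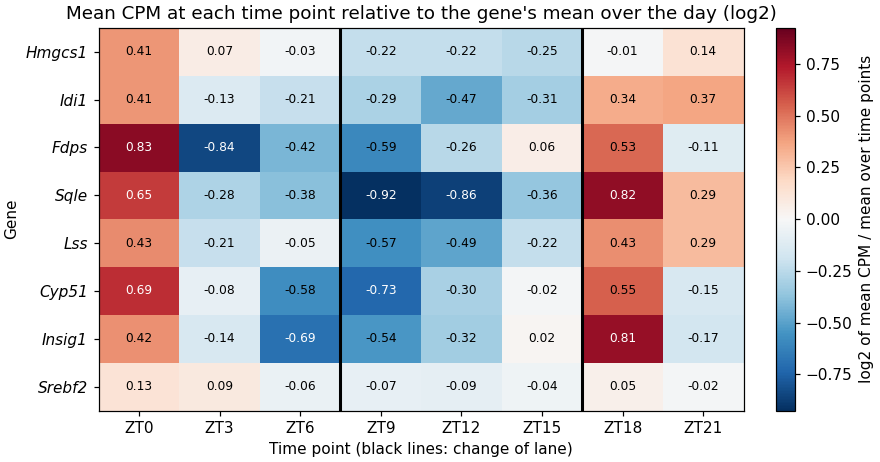
Mean CPM of each gene (rows) at each time point (columns) as log2 of its ratio to the gene's mean over the day, with black lines where the lane changes. Sqle reads 0.82 at ZT18 and -0.92 at ZT9, and Srebf2 stays between -0.09 and 0.13.

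Across times 12 h apart, all on different lanes, 5 of 8 genes were lower at ZT12 than at ZT0 (Hmgcs1, Idi1, Sqle, Lss and Cyp51), beside 8.15% of all genes, with a median log2 difference of -0.90 over the 8 against 0.00 over all genes. The count ran from 1 without ZT0 replicate 3 or without ZT12 replicate 3 (Hmgcs1 in both), 2 without ZT12 replicate 2 and 3 without ZT12 replicate 4, to 8 without ZT12 replicate 1, and was 2 when only the 8 libraries entered the fit. At ZT18, 3 of 8 were higher than at ZT6 (Sqle, Cyp51 and Insig1), beside 8.18%, with a median of 0.75. At ZT21, 1 of 8 was higher than at ZT9 (Lss), beside 4.51%, and between ZT15 and ZT3 0 of 8 passed by edgeR, beside 14.2%, and 0 by DESeq2, with 1 (Fdps) at an unadjusted p under 0.05.

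**Figure D3:**
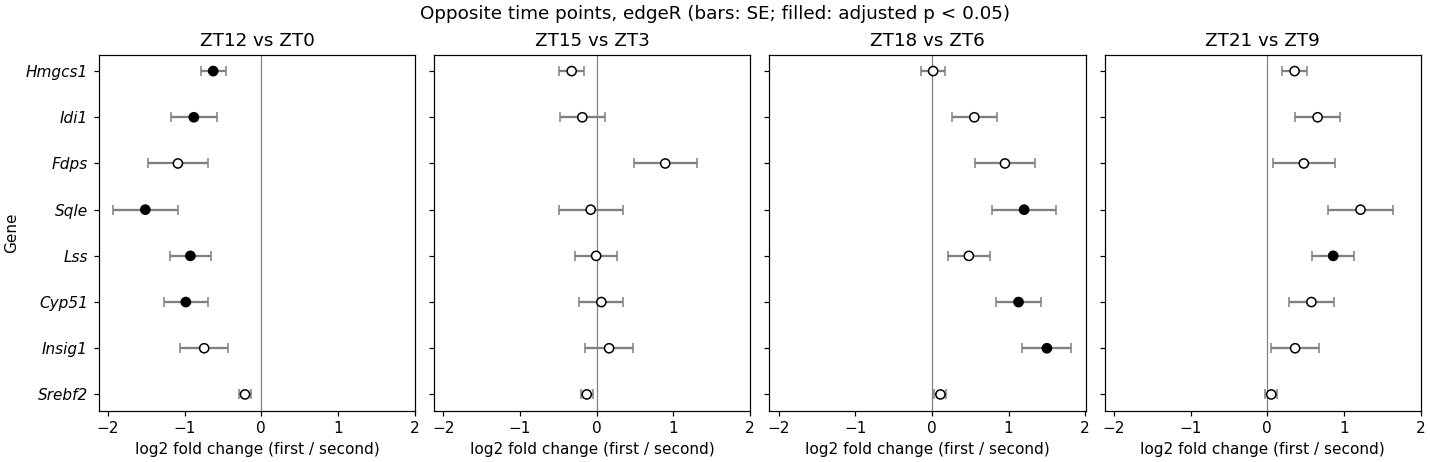
Log2 fold change (horizontal axis) of each gene (vertical axis) between opposite time points in 4 panels; bars are SE and filled points passed an adjusted p of 0.05 in edgeR. Points lie below 0 for all 8 genes at ZT12 against ZT0 and above 0 for all 8 at ZT18 against ZT6 and at ZT21 against ZT9.

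Within lanes, where lane is held fixed, the time points of lane 2 differed for 4 of 8 genes, beside 12.6% of all genes: Fdps (edgeR adjusted p = 0.0273), Cyp51 (0.0292), Hmgcs1 (0.0341) and Insig1 (0.0465). Insig1 was lost with the replicate block (0.0538) and Hmgcs1 with library size alone (0.0744), which each left 3 of 8. The count was 0 without ZT0 replicate 1, 2 or 3, 1 without ZT3 replicate 2 or 3 and 2 without ZT6 replicate 3. The count over all genes, 1959, ran from 882 without ZT0 replicate 3 to 3287 without ZT0 replicate 4. In lane 3, 0 of 8 passed in edgeR, beside 1.78% of all genes, and 0 at an unadjusted p under 0.05. In lane 4, 0 of 8 passed, beside 4.02%, and 2 at an unadjusted p under 0.05 (Cyp51 and Insig1).

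Mice of the same time point also differed, and most of the 8 genes differed together. For each library the deviation of log2 CPM from the mean of its time point was taken, and mice were permuted within time points (two-sided permutation test, 100000 resamples, 9 relations in each family, BH over the 9). Hmgcs1 was tested against the other 7 genes, Acly and Pck1: Pearson's r with the 7 was 0.349 to 0.479 and Spearman's rho 0.280 to 0.479, and 0 of 9 passed (lowest BH 0.112 for r and 0.101 for rho), with 2 of 9 for r and 3 of 9 for rho at an unadjusted permutation p under 0.05. Without the 2 libraries farthest in Hmgcs1 (ZT9 replicate 3 and ZT12 replicate 1), r with the 7 was 0.168 to 0.363. With libraries scaled by size alone it was lower, 0.0679 for Srebf2 to 0.329 for Insig1, and rho with Srebf2 was -0.059. Within lane 3 it was 0.643 to 0.912, but in lane 2 it was -0.214 to 0.226 and in lane 4 -0.319 to 0.0992, so the relation did not hold within every lane.

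Sqle was taken as a second reference after the values were seen, and its p-values do not allow for that choice. Its deviations followed those of Lss (r = 0.940, rho = 0.945) and Cyp51 (r = 0.936, rho = 0.949), each with a permutation p of 1e-05, the smallest the resamples can give. For Fdps, Insig1 and Idi1 r was 0.870, 0.850 and 0.840 and rho 0.850, 0.867 and 0.818, and for Srebf2 r was 0.704 and rho 0.667 (BH at most 0.000334 in the permutation test for these 4 genes). Within lanes 2, 3 and 4, r with Lss was 0.964, 0.915 and 0.972, and r with Insig1 was 0.886, 0.854 and 0.793. Without the 2 libraries farthest in Sqle, r with Lss was 0.933. When libraries were scaled by size alone, r with Srebf2 was 0.399 and its rho of 0.354 no longer passed (BH 0.0806 in the permutation test), while r with Lss was 0.931. Sqle also followed Acly, which encodes ATP citrate lyase and is listed below under fatty acid synthesis (r = 0.890). Sqle ran opposite to Pck1, a gene raised by fasting (r = -0.592, BH 0.00179 in the permutation test). Within lanes 2, 3 and 4, r with Pck1 was -0.654, -0.415 and -0.850, and lane 3 did not pass (permutation p = 0.230). Hmgcs1 did not pass against Sqle (r = 0.361, BH 0.112 in the permutation test).

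**Figure D4:**
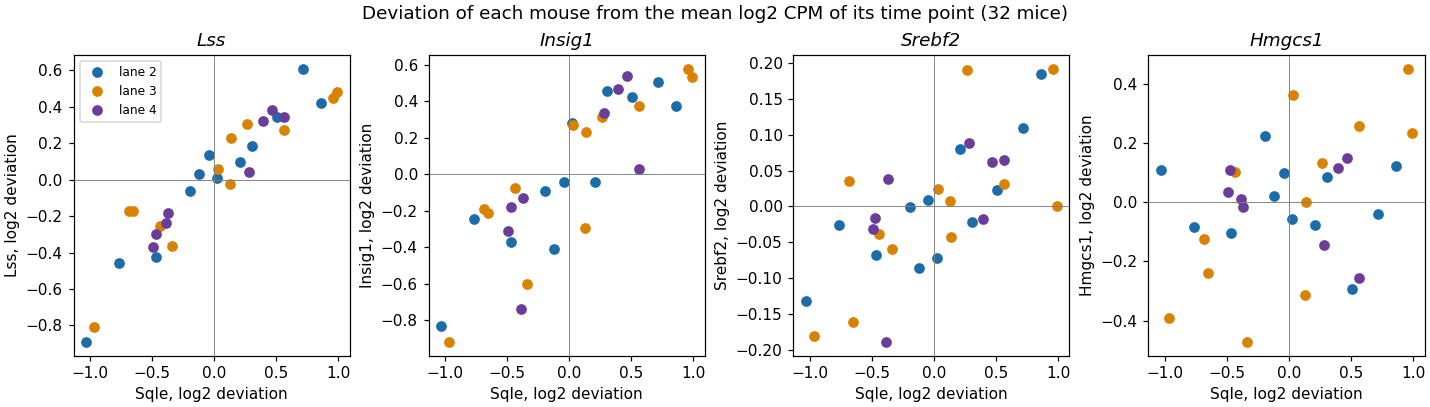
Deviation of each of 32 mice from the mean log2 CPM of its time point for Sqle (horizontal axis) against Lss, Insig1, Srebf2 and Hmgcs1 (vertical axes, each with its own scale), colored by lane. Lss follows Sqle closely (r = 0.940), whereas Hmgcs1 scatters (r = 0.361).

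Of 13 other genes of sterol synthesis, 6 passed the cosine test (edgeR adjusted p under 0.05), beside 36.1% of all genes, and 9 differed between time points, beside 39.8%. With lane as a factor 3 passed the cosine, beside 17.2% of all genes: Mvd and Fdft1 again, and Msmo1, which had not passed without it. Acat2, Pmvk, Mvd, Nsdhl and Dhcr7 peaked between ZT18 and ZT2, with amplitudes from 0.30 ± 0.06 for Dhcr7 to 0.69 ± 0.17 for Mvd. Fdft1, squalene synthase, which makes the substrate of Sqle, was the exception: it peaked at ZT15.5 with an amplitude of 0.42 ± 0.07 (edgeR adjusted p = 6.04e-05). Its means stayed between 132 and 135 CPM from ZT0 to ZT9 and reached 241 ± 47.8 CPM at ZT15 (SD, n = 4). Mvk, Tm7sf2, Lbr, Msmo1, Hsd17b7, Ebp and Sc5d did not pass the cosine test without lane, although Tm7sf2, Msmo1 and Sc5d differed between time points.

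**Figure D5:**
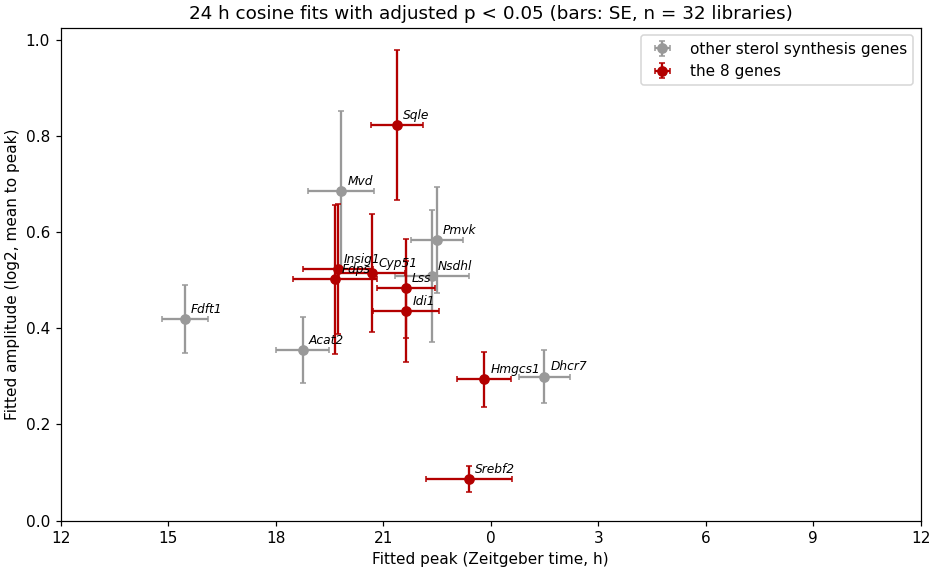
Fitted amplitude (log2, mean to peak, vertical axis) against fitted peak (Zeitgeber time, h, horizontal axis, drawn from ZT12 to the next ZT12) for the 8 genes in red and the 6 other sterol synthesis genes that passed the cosine test in grey; bars are SE over 32 libraries. Fdft1 stands apart at ZT15.5, and Srebf2 has the lowest amplitude, 0.09.

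In the next lists too, cosine counts stand beside 36.1% of all genes, or 17.2% with lane as a factor. Of a list of 5 SREBP genes, 1 passed: Srebf1, which encodes SREBP-1, with an amplitude of 0.37 ± 0.10 and a peak at ZT15.3 (edgeR adjusted p = 0.0044, and 0.0118 with lane). Scap, Mbtps1, Mbtps2 and Insig2, which act in the processing or retention of SREBP, did not, although Mbtps2 passed with lane as a factor (adjusted p = 0.00757) and differed between time points (0.00349). Of 5 genes tested for uptake and trafficking, 2 passed: the lysosomal cholesterol exporter Npc1 peaked at ZT7.32 and Mylip, a ubiquitin ligase, at ZT11.7. With lane as a factor 1 of the 5 passed, Npc1 (adjusted p = 0.0129). Of 7 tested for efflux and LXR, 2 passed, Abca1 (ZT11.0) and Nr1h2 (ZT6.13), and with lane as a factor both calls were lost in edgeR (adjusted p = 0.740 and 0.327). Of 6 genes of the isoprenoid branch, 4 passed, Ggps1, Dhdds, Pdss2 and Fntb, peaking between ZT19.3 and ZT23.3. With lane as a factor 3 passed: Dhdds and Fntb again, and Pdss1, which had not passed without it (edgeR adjusted p = 0.229). Ggps1 and Pdss2 were lost with lane (adjusted p = 0.511 and 0.491). Of 8 of fatty acid synthesis, 4 passed (Acly, Acss2, Me1 and Thrsp), while Fasn and Scd1 did not (adjusted p = 0.236 and 0.305). Those 4 calls were lost when lane was fitted as well (adjusted p 0.221 to 0.759). Soat2 and Ch25h were too low to be tested.

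Over the 32 libraries, the genes whose log2 CPM was most like the mean z-score of the 8 genes, among 13441 with a mean of at least 1 CPM, were Rims4 (r = 0.951), Mmab (0.946), Eif4e2 (0.943), Ncan (0.941) and Nsdhl (0.935). On deviations from the time-point means they were Sc5d (0.967), Lactb2 (0.960), Mmab (0.953), Pgd (0.949) and 2310069B03Rik (0.948). These are descriptions over libraries that share time points and lanes.

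Markers of other cells also varied with the 8 genes from mouse to mouse. On the same deviations, r with the 8 was -0.693 for Cdh5, -0.615 for Pecam1 and -0.0913 for Kdr, the 3 endothelial markers, which summed to 486 to 559 CPM at ZT12 and to 726 to 771 CPM at ZT3, with 486 to 826 CPM over all libraries. Over the day 2 of the 3 passed the cosine, Cdh5 and Kdr, beside 36.1% of all genes, and both were lost with lane as a factor (edgeR adjusted p = 0.976 and 0.111). Kdr peaked at ZT23.8 and had 320 ± 37.9 CPM at ZT0 and 184 ± 10.1 CPM at ZT12 (SD, n = 4). Of the leukocyte markers, Ptprc had -0.417, Adgre1 -0.331 and Cd68 -0.0797, and the 7 skeletal muscle markers had -0.277 to -0.207. Among brown adipocyte markers Elovl3 had 0.836, Ucp1 0.335 and Ppargc1a -0.276, and the white fat markers Agt, Retn and Lep had 0.0212, -0.0862 and -0.117. The cosine passed for 1 of 6 blood and leukocyte markers (Adgre1), 1 of 6 of brown adipocytes (Ucp1), and 1 of 3 of white fat (Lep), and the lowest edgeR adjusted p for skeletal muscle markers was 0.591 (Myh1). Adgre1 peaked at ZT7.46 and Lep at ZT16.0, and both passed with lane as a factor (edgeR adjusted p = 0.0105 and 0.00792). Ucp1, which peaked at ZT6.49, did not pass with lane (0.202). At ZT9 Adgre1 had 17.4 ± 26.8 CPM (SD), and single mice ran from 2.43 to 57.5 CPM. Its means at the other time points ran from 3.06 CPM at ZT0 to 6.11 CPM at ZT3. JTK did not call Adgre1 oscillating, so its cosine calls are to be read with caution. The part of the cells of these markers in the results was not tested, apart from the muscle covariate.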

How the data were processed

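The authors deposited raw read counts per gene for 32 iBAT libraries, unnormalized. Per the submitters' processing notes and the methods of the study, stranded paired-end reads were mapped to mm10 with GSNAP and counted with HTSeq (0.6.1). Groups were the time points of the labels. Counts were filtered with filterByExpr, TMM scaled and tested with edgeR 4.0.16 (R 4.3.3) with BH adjustment and a threshold of 0.05. JTK_CYCLE was written anew (21 and 24 h periods, 15 templates) and the tests were checked on simulated data. Its counts were not compared with those of the original software and depend on the treatment of tied templates. DESeq2 1.42.0 was an alternative. Log2 CPM used a prior count of 2. The 8 genes, the lists and the tests were chosen with earlier results of these data known. Some genes of the lists are not reported here. Named genes are the 8, the lists and the 5 genes most like the 8 by levels and by deviations. Coordinates are GRCm38. A chi-square comparison of the 48 within-time-point pairs gave at least 7.63 per gene on average, so none was a copy. Replicates are separate mice.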

Additional observations from a re-analysis of the deposited data

Results flagged for a closer look

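Of 64 groups of 4 mice (8 genes at 8 time points), 5 held a library whose gap to the nearest other, as a share of the range, exceeded Dixon's critical value; chance flags about 1 in 20 groups. Replicate 1 of ZT15 was low for Lss, with 28.7 CPM against 59.0 to 62.3 in the other 3 mice, and for Insig1, with 214 CPM against 476 to 524. That library lay below the mean of its time point for all 8 genes, by log2 deviations of -0.18 for Srebf2 to -1.14 for Fdps, and had the highest skeletal muscle and white fat marker sums of the 32 libraries, 5814 and 357 CPM, with brown adipocyte markers at 2988 CPM and mitochondrially encoded genes at 26.7% of counts. Without it, 8 of the 8 genes passed JTK, 7 the cosine and 6 any time point; the part of its marker content in its values was not tested. Replicate 1 of ZT12 was high for Fdps, with 2.22 CPM against 1.04 to 1.09. Replicate 2 of ZT3 was low for Lss, with 38.9 CPM against 55.9 to 59.3, and replicate 1 of ZT18 was high for Srebf2, with 43.9 CPM against 41.1 to 41.5.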

How the results depend on the processing

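Values are the number of the 8 genes that passed. With lane as a factor the cosine passed for 3. For ZT3 against ZT0 it was 2 with only the 8 libraries (Fdps and Hmgcs1) and 2 with DESeq2 (Fdps and Cyp51). For ZT0 against ZT21 it was 1 with DESeq2 (Cyp51). For ZT12 against ZT0 it was 2 with only the 8 libraries. For ZT21 against ZT9 it was 0 with no filter and 2 with the replicate block. The causes were not tested. With libraries left out in turn the count was 7 to 8 for JTK, 6 to 8 for the cosine, 6 to 7 for any time point, 1 to 2 for ZT3 against ZT0, 0 to 1 for ZT0 against ZT21, 1 to 8 for ZT12 against ZT0, 0 to 1 for ZT15 against ZT3, 2 to 4 for ZT18 against ZT6, 0 to 2 for ZT21 against ZT9 and 0 to 5 in lane 2. Without ZT0 replicate 4, Cyp51 passed for ZT3 against ZT0 and for ZT0 against ZT21; without ZT15 replicate 1, Fdps passed for ZT15 against ZT3; and without ZT9 replicate 1, Sqle passed for ZT21 against ZT9. With the replicate block the cosine passed for 7, any time point for 7 and lane 2 for 3. Libraries with the same replicate number were not more alike than others. Over 112 pairs with the same number, deviations had r of -0.726 to 0.767 (median -0.119). Over 336 pairs with different numbers, r was -0.71 to 0.772 (median 0.0738). Added after seeing the data, a muscle marker covariate left 7 for the cosine and gave 7 for any time point, and tied JTK templates left 8. The r of Hmgcs1 with Pck1 turned from -0.0078 to 0.056 with library size alone. Over all genes, with only the 8 libraries in the fit, calls were 928 for ZT3 against ZT0 (2134 in the full fit), 71 for ZT6 against ZT3 (322), 14 for ZT9 against ZT6 (303), 71 for ZT15 against ZT12 (472), 65 for ZT18 against ZT15 (182), 624 for ZT21 against ZT18 (320), 467 for ZT0 against ZT21 (1197), 1239 for ZT12 against ZT0 (2460), 1426 for ZT15 against ZT3 (2199) and 655 for ZT21 against ZT9 (1492). With no filter they were 1396, 184, 244, 98, 190 and 763 for the steps to ZT3, ZT9, ZT15, ZT18, ZT21 and ZT0, and 966 for ZT21 against ZT9. DESeq2 gave 489, 374 and 540 for the steps to ZT9, ZT18 and ZT21, and library size alone 187 for the step to ZT21. ZT12 against ZT9 gave 0 calls with edgeR (1047 at unadjusted p under 0.05), 7 with no filter and 24 with DESeq2. With the replicate block lane 3 gave 101 (276) and lane 4 72 (624). JTK gave 6150 calls (5368 with tied templates), and the cosine 5601 (2661 with lane as a factor). With libraries left out in turn, calls over all genes were 882 to 3287 in lane 2 (1959), 56 to 388 in lane 3 (276), 152 to 401 in lane 4 (624), 1161 to 3281 for the step to ZT3, 132 to 314 to ZT6, 120 to 355 to ZT9, 0 to 5 to ZT12, 185 to 472 to ZT15, 56 to 122 to ZT18, 100 to 212 to ZT21 and 580 to 1652 to ZT0. Fdps had 8 to 73 counts per library, which limits its precision.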
